A study of Mus musculus with 27 samples.

Results

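Stra6 and 8 other genes of the retinoid pathway were followed in cultured mammary tumour cells of MMTV-PyMT mice. The members were Stra6, Crabp2, Aldh1a1, Aldh1a3, Rara, Rarb, Rarg, Dhrs3 and Cyp26b1, which is 9 genes of the 24454 listed. They were chosen by name, and Stra6 was selected on its measured rise with Wnt3a. That choice used the untreated and Wnt3a libraries. The values of Stra6 are therefore a description and carry no test, and counts of members called are over the other 8.

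Cells came from mammary tumours of female FVB/N mice, in which the MMTV promoter drives the polyoma middle T oncogene in the mammary gland. Bcl9 and Bcl9l are coactivators of β-catenin. They contact β-catenin through their domain HD2 and Pygopus proteins through HD1. The fl lines, ΔHD1/fl or ΔHD2/fl, had an allele of both genes mutant in the named domain beside a floxed wild-type allele. Adenoviral Cre with GFP, followed by sorting for GFP, took away the floxed allele and gave the recombined lines, ΔHD1/- or ΔHD2/-. A library of each line came from untreated cells, and further ones from cells kept for 3 days in Wnt3a at 100 ng/ml and for 4 days in TGFβ at 2 ng/ml. Untreated cells carry the time label of 4 days, so that Wnt3a comparisons differ from their control in labelled time, although per the labels all cells were plated at one time and all RNA was taken at one time. There were 2 cell lines in each of the genotypes ΔHD1/fl, ΔHD1/- and ΔHD2/fl and 3 in ΔHD2/-, which gave 27 libraries from 9 lines. Lines of a genotype are its replicates, and a line may differ from its neighbour by clonal history as well as by genotype.

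Retinol circulates bound to retinol-binding protein, and Stra6 is the membrane receptor that carries it into cells. Inside the cell retinol is oxidised to retinal, and retinal dehydrogenases such as Aldh1a1 and Aldh1a3 turn retinal into retinoic acid. Crabp2 hands retinoic acid to the nuclear receptors Rara, Rarb and Rarg, which act on DNA with RXR partners, while Dhrs3 reduces retinal back to retinol and Cyp26b1 degrades retinoic acid. In mammary epithelium this pathway is known for its link to differentiation, and several of its genes are themselves induced by retinoic acid.

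The libraries held 21.86 to 33.69 M reads (median 25.96 M), and expression is given as reads per 1000000 reads of the library (CPM). A count of 0 allows up to 3 reads, which is 0.0890 to 0.137 CPM. This limit covers counting error only. Of the 6 epithelial genes checked, Cdh1 and Epcam were at or below 0.522 CPM in every library of line 2 of ΔHD1/fl and line 2 of ΔHD1/-, which also held the highest Vim and Col1a1 levels. The other 4 epithelial genes were at or below 4.54 CPM in line 2 of ΔHD1/fl, but line 2 of ΔHD1/- had 988 to 2884 CPM of Krt8 and up to 29.2 CPM of Krt18, so these lines are not alike. Cdh1 and Epcam were at or above 4.29 CPM in all libraries of the other 7 lines. Lines 2 and 3 of ΔHD2/- were nearly alike (Pearson r of log2(CPM + 1) over the 13270 tested genes from 0.993 to 0.997, against 0.807 to 0.957 for the other pairs of lines), and the labels list them as separate lines. Of the 5 immune genes Ptprc, Cd3e, Adgre1 and Cd79a stayed at or below 0.252 CPM, while Cd68 ranged from 1.43 to 24.5 CPM. Of the 3 adipocyte genes Adipoq and Plin1 stayed at or below 0.0373 CPM and Fabp4 reached 2.58 CPM. The endothelial genes Cdh5, Pecam1 and Kdr reached 6.32, 2.07 and 0.252 CPM. The reads of Bcl9 (32.4 to 104 CPM) and Bcl9l (70.7 to 346 CPM) do not check the genotypes, since totals over a gene do not show which allele was read. Axin2, a direct target of Wnt signalling, was higher with Wnt3a in 9 of 9 lines.

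Short stretches of promoter are shown for the members in which letters known to be read by TCF or by retinoic acid receptors occurred near a start site. RefSeq windows of GRCm38 (250 bases before to 50 bases after a start) were at hand for 7 of the 9 members, 17 windows in all, out of 32851 windows. The letters searched for TCF, the DNA-binding partner of β-catenin, were CTTTGAT and CTTTGAA on both strands, which occurred in 8.65% of all windows. For retinoic acid receptors the search was for direct repeats of the element AGGTCA, its variant AGTTCA, or either with G as the first base, with 1, 2 or 5 bases between them, also on both strands. These occurred in 0.222%, 0.268% and 0.0974% of all windows. Capitals mark the match, the strand is that of the gene, and the sequences read 5′ to 3′.
Stra6, chr9:58129193-58129221: gaaactcagccATCAAAGccctggcttct
Dhrs3, chr4:144893021-144893049: ttaatcttgcaCTTTGAAaccgcggactg
Aldh1a1, chr19:20492441-20492469: ggaaaagcaacTTCAAAGgtcgatcatca
Aldh1a1, chr19:20492484-20492512: gctcagcctgaCTTTGAAaaactcaggcc
Rarb, chr14:16575507-16575535: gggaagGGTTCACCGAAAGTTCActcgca

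Positions are counted from the start site, with bases before it negative. The match at Stra6 lay at -145 to -139 from a start at position 58129349 of chromosome 9 and was in 1 of its 4 windows. It is inside the annotated gene, outside its exons. That at Dhrs3 lay at -45 to -39 from one start and at -105 to -99 from a second. Aldh1a1 held a pair of matches, at -131 to -125 and -88 to -82, both inside another annotated gene, C730002L08Rik. The window of Rarb held the repeat spaced by 5 bases, at -53 to -37 and within an exon of another transcript of the gene. None of the other windows of the members held any of these letters, which says only that the letters are not there. Whether any of these sites is bound was not measured.

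Untreated levels per length of transcript (CPM per kb of annotated exon) spanned a wide range. Rarg was highest with a median over the 9 lines of 62.1 CPM per kb, from 38.4 to 96.1. Crabp2 followed at 33.1, but with a range from 0.136 to 270.02, and Rarg exceeded it in only 5 of 9 lines. Rara had a median of 15.2 CPM per kb and was below Crabp2 in 6 of 9 lines. Dhrs3 (4.58 CPM per kb) and Cyp26b1 (2.30 CPM per kb) came next, and Dhrs3 was above Cyp26b1 in 6 of 9 lines. Aldh1a3 was at 0.269, Aldh1a1 at 0.0173, Rarb at 0.0166 and Stra6 at 0 CPM per kb. Rara stood above Dhrs3 in 8 of 9 lines, and for every other pair of neighbours in this order the higher gene led in at most 7 of 9 lines, so that their ranges overlap. Among the receptors Rarg and Rara were at or above 27.4 CPM in all 27 libraries, and Rarb was at or above 1 CPM in only 2.

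**Figure D1:**
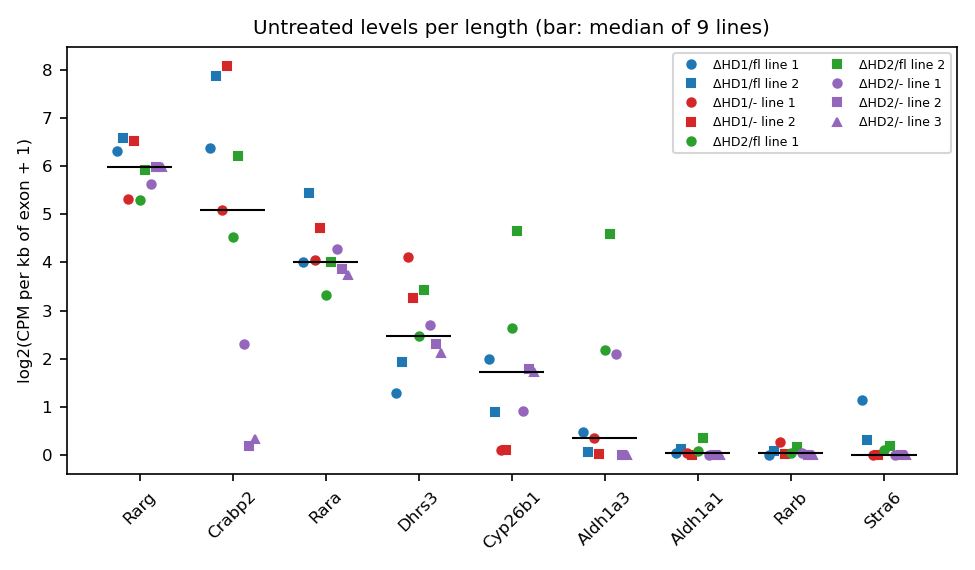
Untreated levels of the 9 members per kb of exon, on a log2(CPM per kb + 1) axis, with 1 point per cell line and a bar at the median of 9 lines. Rarg and Rara lie in narrow bands, Crabp2 spreads from 0.136 to 270.02 CPM per kb, and Aldh1a1, Rarb and Stra6 sit near 0.

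Stra6 (Entrez 20897; chromosome 9, 58063788 to 58153996, + strand) was low without cytokine and was higher with Wnt3a in 9 of 9 lines. Untreated ΔHD1/fl lines 1 and 2 had 6.95 and 1.42 CPM, and ΔHD2/fl lines 1 and 2 had 0.388 and 0.740 CPM. All 5 untreated recombined lines had 0 reads. So Stra6 was detected in each fl line and in none of the recombined lines at this depth.

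With Wnt3a, Stra6 was highest in ΔHD1/fl line 1 with 1159 CPM, while line 2 of that genotype had 32.7 CPM. ΔHD2/fl lines 1 and 2 reached 136 and 199 CPM. The ΔHD1/- lines reached only 1.78 and 0.526 CPM, and ΔHD2/- lines 1, 2 and 3 reached 3.24, 28.6 and 20.6 CPM. Recombined lines lay below the fl lines of their family without overlap, as 9.95% of all genes tested did in the ΔHD1 and 15.6% in the ΔHD2 family, and since these values chose Stra6 nothing is read from it. The means were 596 ± 797 (SD, n = 2) against 1.15 ± 0.888 CPM (SD, n = 2) in the ΔHD1 family, and 167 ± 44.2 (SD, n = 2) against 17.5 ± 13.0 CPM (SD, n = 3) in the ΔHD2 family. The SD of the ΔHD1/fl mean exceeds the mean itself, since line 1 had far more than line 2. ΔHD1/fl line 2 is one of the lines with Cdh1 and Epcam near 0, and the other, ΔHD1/- line 2, held the lowest level with Wnt3a. The part of these markers in the Stra6 levels was not tested.

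As ratios to the untreated library of the same line, the Wnt3a values were 167 and 23.1 in the ΔHD1/fl lines and 351 and 268 in the ΔHD2/fl lines. Against the 3 reads that a count of 0 allows in each untreated library, Stra6 was at least 13.9-fold and 5.91-fold higher in the ΔHD1/- lines and at least 24.7-fold, 212-fold and 164-fold higher in the ΔHD2/- lines. These lower bounds do not show whether the fold rise was smaller in recombined than in fl lines, because the untreated level of the recombined lines is not known below the limit. On the log2(CPM + 1) scale, on which a low level counts for little, the rise had a median of 4.44 over the 9 lines and ranged from 0.61 to 7.19. On that scale the response of recombined lines minus that of fl lines was -4.45 in the ΔHD1 and -2.93 in the ΔHD2 family. With a pseudocount of 0.1 it was -2.46 and -1.03, while edgeR on the reads gave 0.55 and 3.53, with the opposite sign. So the order of the fold rises depends on the scale and on how a count of 0 enters it, and no order is read from these values. Ccdc33, which overlaps Stra6 on the other strand, had 0 reads in the 18 libraries without Wnt3a and at most 0.602 CPM with it, in ΔHD1/fl line 1.

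TGFβ left Stra6 at or below 1.26 CPM. ΔHD1/fl lines 1 and 2 went from 6.95 to 1.26 and from 1.42 to 0.107 CPM, and ΔHD2/fl lines from 0.388 to 0.0756 and from 0.740 to 0.0710 CPM. All 4 fl lines were thus lower with TGFβ. The ratios to untreated were 0.181 in ΔHD1/fl line 1, and, on 3 reads or fewer with TGFβ, 0.0752 (95% counting interval 0.0148 to 0.237), 0.195 (0.0205 to 0.942) and 0.0959 (0.0109 to 0.395) in the others. Of the recombined lines, 1 had a single read and 4 had none.

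**Figure D2:**
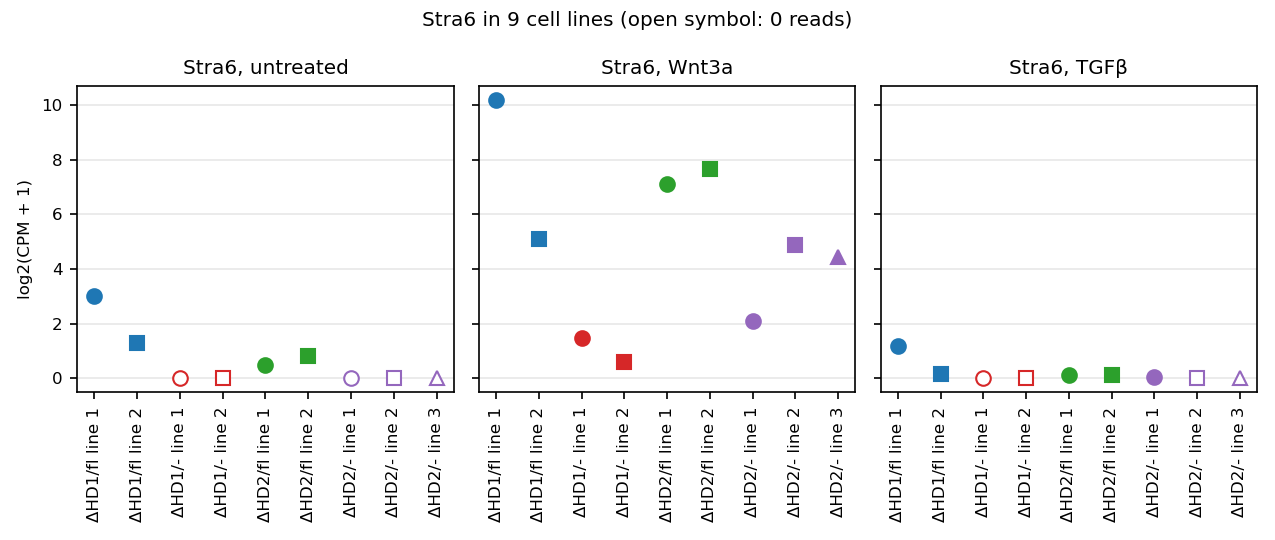
Stra6 in each of 9 cell lines as log2(CPM + 1), in untreated, Wnt3a and TGFβ libraries, with 1 point per library and open symbols for 0 reads. With Wnt3a the 4 fl lines lie between 32.7 and 1159 CPM and the 5 recombined lines between 0.526 and 28.6 CPM.

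None of the other 8 members passed the test with Wnt3a. Averaged over the 4 genotypes, limma called 0 of 8, with 0 of 8 at an unadjusted p under 0.05, and edgeR on the reads also called 0, where limma called 0.0226% of the 13270 genes tested. Genes were called at an adjusted p up to 0.05 if they also changed by 1 or more, up or down, on the log2 scale. The median log2 change of the 8 was 0.12, against -0.06 over all genes tested. Crabp2 was higher in 7 of 9 lines by a mean of 0.55 ± 0.68 (SE; limma adjusted p = 1.00), and Rara was lower in 8 of 9 lines, with a change of -0.43 ± 0.30 (SE; limma adjusted p = 1.00). Within single genotypes 0 of the 8 was called either, with 0 at an unadjusted p under 0.05 and 0 called by edgeR. Of all genes, 0.0151% were called in ΔHD1/fl lines and 0.00754% in their recombined counterparts, and 0.113% in ΔHD2/fl against 0.00754% in ΔHD2/- lines.

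Single lines did show larger values. In ΔHD1/fl line 1, the line with the highest Stra6, Aldh1a3 went from 1.78 to 16.7 CPM with Wnt3a and Cyp26b1 from 15.9 to 104 CPM. ΔHD1/fl line 2 did not share this, with 0.186 and 0.284 CPM of Aldh1a3 and 4.59 and 3.30 CPM of Cyp26b1. Dhrs3 went from 48.1 to 15.3 CPM in ΔHD1/- line 1, while ΔHD2/- lines 2 and 3 went from 11.5 to 14.9 and from 9.80 to 15.7 CPM. Marker genes differed between the same libraries. In ΔHD1/fl line 1 the sum of 4 basal genes (Krt5, Krt14, Trp63 and Acta2) went from 3521 to 10470 CPM with Wnt3a and that of 5 mesenchymal genes (Vim, Cdh2, Zeb1, Zeb2 and Fn1) from 6715 to 3212 CPM. The mesenchymal sum, most of it Fn1, went from 8818 to 1591 CPM and from 7409 to 2193 CPM in ΔHD2/- lines 2 and 3. The part of these markers in the values of the members was not tested.

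TGFβ lowered 3 of the 8 members tested and raised none, where limma called 5.42% of all genes tested. The called members were Rarg, Dhrs3 and Crabp2, of which edgeR on the reads called the first 2. Calls over all genes fell on 247 higher and 472 lower genes. The median of all genes was -0.16 on the log2 scale with CPM and -0.02 with median-of-ratios scaling, under which 317 of 633 called genes were higher. The 8 members had a median of -0.37. Rarg and Dhrs3 were lower in 9 of 9 lines, which held for 15.7% of all genes tested.

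Rarg (Entrez 19411; chromosome 15, 102234938 to 102257517), the retinoic acid receptor with the highest level, was at 336 and 409 CPM in untreated ΔHD1/fl lines 1 and 2, 165 and 390 in ΔHD1/-, 164 and 255 in ΔHD2/fl and 207, 265 and 268 CPM in ΔHD2/-. With TGFβ the same lines had 196 and 210, 90.2 and 92.2, 85.0 and 95.7, and 83.4, 117 and 125 CPM. Each line fell to between 0.236 and 0.581 of its untreated level, and within every genotype the TGFβ libraries lay below the untreated ones. The mean change was -1.18 ± 0.16 (SE; limma adjusted p = 0.000144). With median-of-ratios scaling it was only just past the fold change limit (limma adjusted p = 0.00067), and the adjusted p ranged from 4.36e-06 to 0.00278 over all alternatives.

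Dhrs3 (Entrez 20148; chromosome 4, 144892827 to 144928209), the reductase that turns retinal back to retinol, was at 4.16 and 8.24 CPM in untreated ΔHD1/fl lines, 48.1 and 25.1 in ΔHD1/-, 13.4 and 28.7 in ΔHD2/fl and 16.1, 11.5 and 9.80 CPM in ΔHD2/-. With TGFβ these became 0.925 and 5.36, 0.159 and 6.44, 0.869 and 8.38, and 0.568, 2.03 and 1.54 CPM. Line 1 of each genotype ended below 1 CPM, and line 2 of each genotype kept more. The lowest of these values, in ΔHD1/- line 1, rests on 4 reads. The mean change was -2.35 ± 0.40 (SE; limma adjusted p = 0.000873), with an adjusted p from 0.000111 to 0.0136 over all alternatives.

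Crabp2 (Entrez 12904; chromosome 3, 87948666 to 87953376), the carrier that delivers retinoic acid to its receptors, was at 109 and 312 CPM in untreated ΔHD1/fl lines, 43.7 and 357 in ΔHD1/-, 29.1 and 96.6 in ΔHD2/fl, and 5.20, 0.180 and 0.335 CPM in ΔHD2/-. With TGFβ the values were 8.87 and 114, 1.03 and 25.2, 3.97 and 29.05, and 1.97, 0.259 and 0.167 CPM. It was lower in 8 of 9 lines, and the exception, ΔHD2/- line 2, had 4 and 7 reads. The mean change was -2.28 ± 0.68 (SE; limma adjusted p = 0.0302). This call was lost under 10 of 18 alternatives, among them edgeR (adjusted p = 0.144) and leaving out ΔHD1/fl line 1 (adjusted p = 0.0933), ΔHD2/fl line 1 (0.100), ΔHD2/fl line 2 (0.0750), ΔHD2/- line 2 (0.0638) or ΔHD2/- line 3 (0.0688) in limma. With the cell line as a block it was 7.56e-05.

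The remaining members did not pass the test. Cyp26b1 was lower with TGFβ in 8 of 9 lines, with a mean of -0.52 ± 0.60 (SE; limma adjusted p = 0.596), and the exception was ΔHD1/- line 1, in which it went from 0.342 to 4.49 CPM. Rara, the other well expressed receptor, changed by -0.15 ± 0.30 (SE; limma adjusted p = 0.775) and was lower in 5 lines and higher in 4. Aldh1a3 changed by 0.04 ± 0.84 (SE; limma adjusted p = 0.979), and its largest differences ran in opposite directions, from 107 to 26.5 CPM in ΔHD2/fl line 2 and from 1.24 to 6.15 CPM in ΔHD1/- line 1. Aldh1a1 and Rarb never exceeded 1.37 and 2.45 CPM in any library, so little can be said of their response. Aldh1a7, a close relative of Aldh1a1 that can share its reads, was likewise at or below 1.41 CPM.

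Marker genes moved with TGFβ beside these values. The summed level of the 5 mesenchymal genes was 3709 to 18160 CPM without cytokine and 12974 to 48482 CPM with TGFβ, most of it Fn1. With TGFβ Fn1 was higher in 9 of 9 lines, Cdh2 and Zeb2 in 8, Zeb1 in 7 and Vim in 6. The basal genes summed to 303 to 15662 CPM without cytokine and 86.5 to 2955 CPM with TGFβ, with Krt14 and Trp63 lower in 9 of 9 lines and Krt5 in 8, while Acta2 was higher in 7. Of the epithelial genes Cdh1 was lower in 8 lines, Cldn7 in 7, Epcam in 5 and Krt19 in 3, while Krt8 and Krt18 were higher in 7. Of the fibroblast genes Col1a1 was higher in 8 lines, Pdgfra in 7, Col1a2 in 6, Col3a1 and Pdgfrb in 5, Dcn in 3 and Lum in 1. Of the endothelial genes Cdh5 was higher in 9 of 9 lines and Kdr in 7, and Pecam1 was lower in 9 of 9, all at the low levels given above. The immune gene Cd68 was lower in 7 lines. Their part in the responses of Rarg, Dhrs3 and Crabp2 was not tested. Without both lines that lacked Cdh1 and Epcam, the same 3 members were called (limma adjusted p = 0.00104, 0.00139 and 0.0186 for Rarg, Dhrs3 and Crabp2), where each remaining ΔHD1 line was taken to vary like the other groups. In bulk RNA, fewer cells with a gene and less RNA per cell cannot be told apart.

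**Figure D3:**
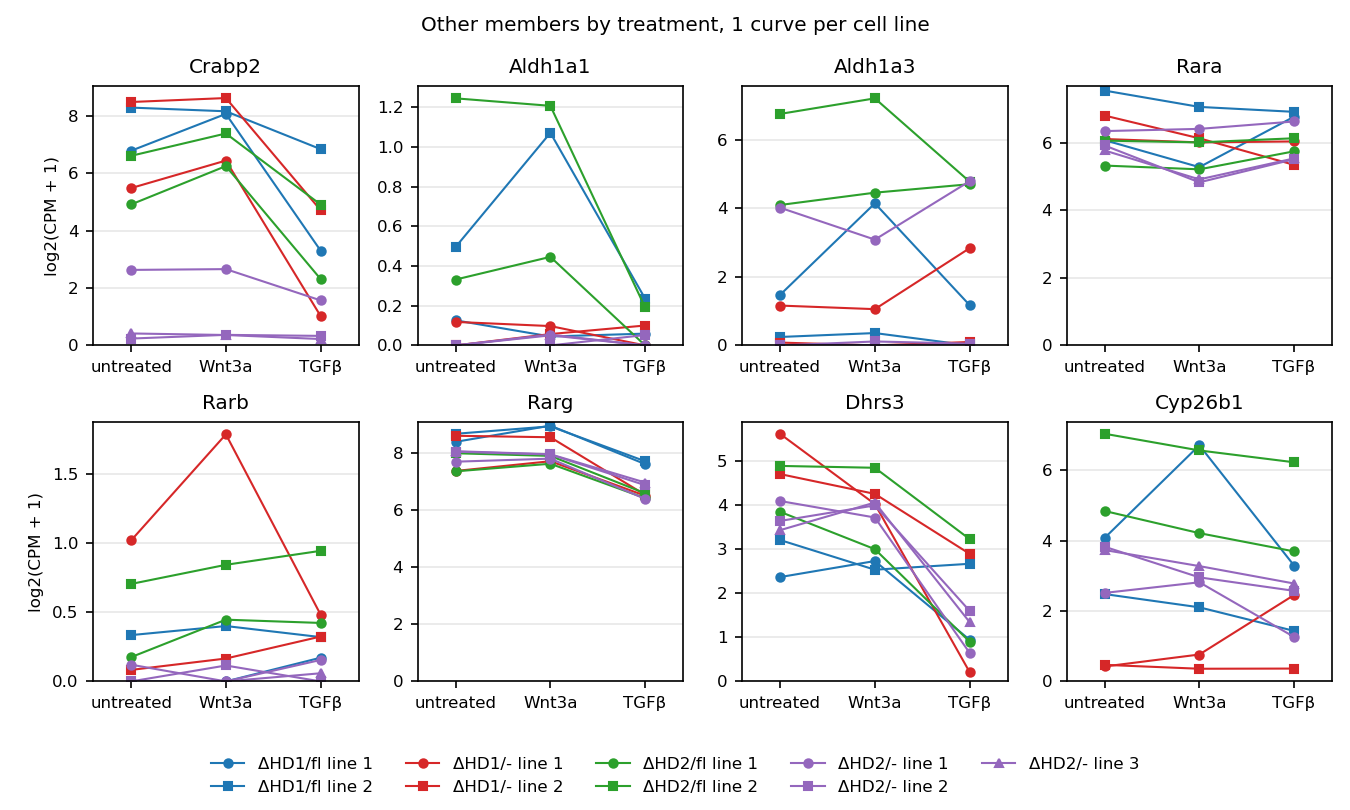
The 8 other members by treatment as log2(CPM + 1), with 1 curve per cell line coloured by genotype and axes of different range. Rarg and Dhrs3 drop with TGFβ in 9 of 9 lines, and Crabp2 is near 0 in ΔHD2/- lines 2 and 3 in all 3 treatments.

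Within single genotypes the TGFβ response of Rarg and Dhrs3 was called in ΔHD1/- lines (log2 changes of -1.47 ± 0.33 and -3.61 ± 0.84, SE; limma adjusted p = 0.0335 and 0.0395), where limma called 1.43% of all genes. Rarg was also called in ΔHD2/- lines (-1.19 ± 0.27, SE; limma adjusted p = 0.0443), against 0.806% of all genes. No member was called in ΔHD1/fl or ΔHD2/fl lines, where 0.211% and 0.286% of all genes were, with 1 and 3 of 8 members at an unadjusted p under 0.05 and 0 called by edgeR. Treatments of a cell line share that line. With the line as a block, 9 responses were called in place of 3, with Crabp2 in ΔHD1/fl, ΔHD1/- and ΔHD2/fl (limma adjusted p = 0.0266, 0.00101 and 0.0439) and Rarg and Dhrs3 in ΔHD2/fl (0.00695 and 0.0466) as well as Dhrs3 in ΔHD2/- (0.00904). Without the block each genotype had 28 to 190 TGFβ calls over all genes, and with it 695 to 1238. Nothing particular to the members is therefore read from this gain. None of the 3 calls made without the block held with edgeR or with median-of-ratios scaling. The call of Rarg in ΔHD1/- was lost without line 2 of ΔHD1/- (limma adjusted p = 0.365), that of Dhrs3 without line 1 or line 2 (0.770 and 0.0503), and that of Rarg in ΔHD2/- without any one of its 3 lines (0.114, 0.490 and 0.480).

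That a response was called in recombined and not in fl lines does not show that they differ. The difference itself was called for no member. For TGFβ limma called 0 of 8 members in each family, with 1 of 8 at an unadjusted p under 0.05 in the ΔHD1 family and 0 in the ΔHD2 family, where 0.00754% and 0.0301% of all genes were called. For Wnt3a it called 0 of 8, with 0 at an unadjusted p under 0.05, where 0% and 0.0151% of all genes were called. edgeR called 0 in each case. Among the differences tested, which leave out Stra6, the largest on the log2 scale was that of Dhrs3, whose TGFβ response differed by -2.63 ± 1.19 (SE) between ΔHD1/- and ΔHD1/fl lines (limma adjusted p = 1.00). Untreated Dhrs3 was higher in both ΔHD1/- lines than in both ΔHD1/fl lines.

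**Figure D4:**
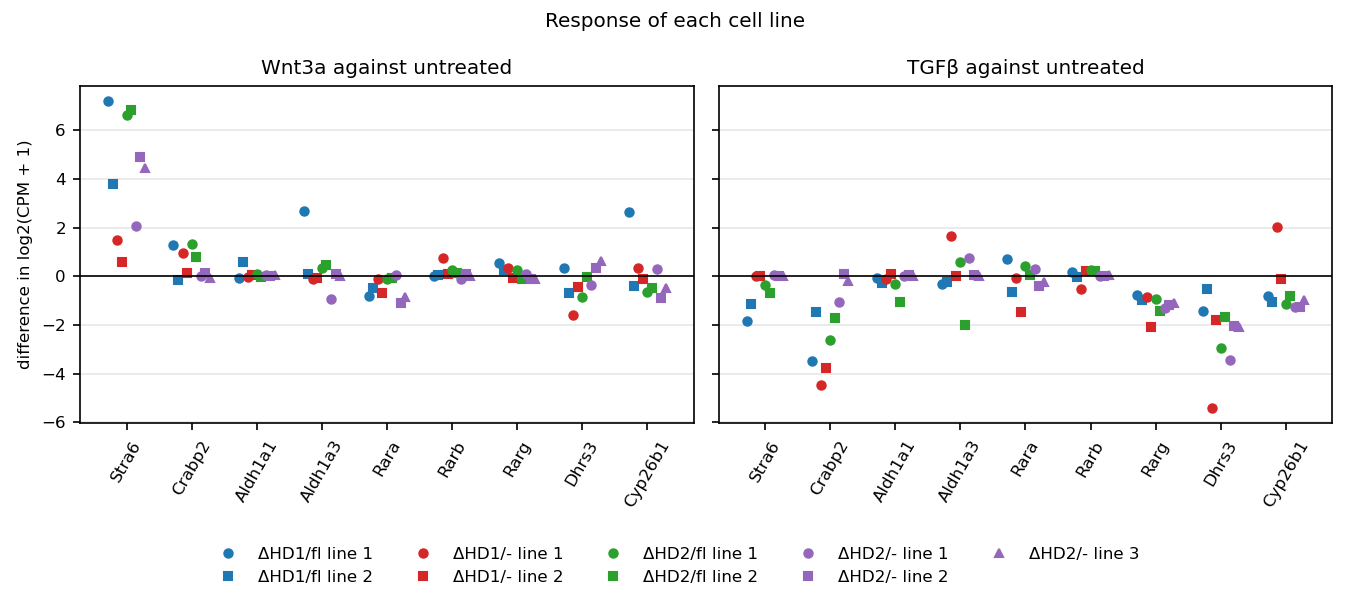
Response of each of 9 cell lines for the 9 members, as the difference in log2(CPM + 1) between Wnt3a (left) or TGFβ (right) and the untreated library of the same line. With Wnt3a all 9 points of Stra6 lie above 0 (0.61 to 7.19), and with TGFβ all points of Rarg (-2.07 to -0.78) and Dhrs3 (-5.40 to -0.54) lie below 0.

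In ΔHD2 cells Crabp2, Aldh1a3 and Cyp26b1 lay lower in recombined than in fl lines without cytokine, and none of these differences passed the test. Levels of fl and recombined lines are compared here for 6 members. Stra6 is left out for the reason given above, and Aldh1a1 and Rarb because they reached 1 CPM only in fl lines or only in ΔHD1/- line 1 and otherwise rest on few reads. Without cytokine the ΔHD2/- lines lay below both ΔHD2/fl lines for these 3 of 6 members, where 14.9% of all genes did so and 12.4% lay above. With Wnt3a they lay below for the same 3 of 6 (15.6% of all genes below, 15.4% above) and with TGFβ for Crabp2 and Cyp26b1 (13.6% below, 13.2% above), while none of the 6 was higher without overlap. limma called 0 members without cytokine, with Wnt3a and with TGFβ, where 0.55%, 0.686% and 0.354% of all genes were called, with 3, 2 and 2 of the 6 members at an unadjusted p under 0.05 and 0 called by edgeR.

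The summed level of the basal genes differed in the same direction, and single basal genes were not compared between these lines. Their sum was 7388 and 15662 CPM in untreated ΔHD2/fl lines and 1120, 1577 and 1314 CPM in ΔHD2/- lines. With Wnt3a it was 7987 and 13256 against 854, 3384 and 3893 CPM, and with TGFβ 1599 and 2955 against 286, 1052 and 1156 CPM, so that the groups did not overlap in any treatment. Vim was at 1.61 to 2.60 CPM in all libraries of ΔHD2/- lines 2 and 3 and at 76.7 CPM or more in those of ΔHD2/- line 1 and of the fl lines. The part of these markers in the differences between ΔHD2 lines was not tested.

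Crabp2 gave the largest of these differences without cytokine and with Wnt3a. With Wnt3a it was at 75.1 and 166 CPM in ΔHD2/fl lines and at 5.32, 0.290 and 0.286 CPM in ΔHD2/- lines. The difference was -5.69 ± 1.30 (SE; limma adjusted p = 0.0531), and it passed without ΔHD2/- line 1 (adjusted p = 0.0114 in limma). Without cytokine it was -4.67 ± 1.30 (SE; limma adjusted p = 0.180), and 0.0276 without ΔHD2/- line 1. Lines 2 and 3 of ΔHD2/-, which were nearly alike, set these values, and line 1 stood between them and the fl lines. Over all genes limma called 682 with Wnt3a and 749 without cytokine when line 1 was left out, against 91 and 73 with it.

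Aldh1a3, the retinal dehydrogenase with the highest level, split the ΔHD2/- lines in the same way. ΔHD2/fl lines had 16.2 and 107 CPM without cytokine, 21.0 and 148 with Wnt3a and 25.1 and 26.5 with TGFβ. ΔHD2/- line 1 had 15.2, 7.51 and 26.8 CPM, just below, well below and just above the range of the fl lines in the same treatment, whereas lines 2 and 3 had at most 2 reads in any library. The differences were -4.09 ± 1.61, -4.77 ± 1.61 and -3.13 ± 1.61 (SE; limma adjusted p = 0.476, 0.329 and 0.678). Without line 1 each was called (limma adjusted p = 0.0156, 0.0112 and 0.0447), so that one line decides the call. Over all genes that fit called 749, 682 and 445, against 73, 91 and 47 with line 1 kept. It leaves only lines 2 and 3 of ΔHD2/-, which were nearly alike, so nothing particular to Aldh1a3 is read from these calls.

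Cyp26b1, which clears retinoic acid, was at 27.7 and 130 CPM in untreated ΔHD2/fl lines and 4.72, 13.2 and 12.3 CPM in ΔHD2/- lines (-2.58 ± 1.15, SE; limma adjusted p = 0.540). With Wnt3a the levels were 17.6 and 93.6 against 6.05, 6.76 and 8.69 CPM, and with TGFβ 11.9 and 73.9 against 1.40, 4.95 and 5.88 CPM. The fl and recombined lines did not overlap in any treatment. Rarg and Rara gave smaller values, with ΔHD2/- against ΔHD2/fl differences between -0.23 and 0.32 on the log2 scale in the 3 treatments. Rarg gave 0.26 ± 0.30 without cytokine (SE; limma adjusted p = 0.868).

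In ΔHD1 cells, members lay in both directions. Without cytokine, of the same 6 members, the ΔHD1/- lines lay below both ΔHD1/fl lines for Cyp26b1 and above them for Dhrs3, where 16.1% of all genes lay below and 10.7% above. With Wnt3a 2 of 6 lay below, Rarg and Cyp26b1 (9.95% of all genes), and Dhrs3 above (13.7%), and with TGFβ Rara and Rarg lay below (22.7%) and 0 of 6 above (6.77%). limma called 0 members in the 3 treatments, where 0.0678%, 0.0452% and 0.0301% of all genes were called, with 2, 2 and 1 of the 6 members at an unadjusted p under 0.05 and 0 called by edgeR. The sums of the basal genes overlapped between ΔHD1/- and ΔHD1/fl lines in the 3 treatments.

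Cyp26b1 was at 0.342 and 0.386 CPM in untreated ΔHD1/- lines and 15.9 and 4.59 CPM in ΔHD1/fl lines (-2.83 ± 1.26, SE; limma adjusted p = 0.983). With Wnt3a it was at 0.699 and 0.283 against 104 and 3.30 CPM (-3.85 ± 1.26, SE; limma adjusted p = 0.650). Without ΔHD1/fl line 2 the difference was -6.15, which rests on 1 fl library at 104 CPM. Dhrs3 was higher in ΔHD1/- lines, at 48.1 and 25.1 against 4.16 and 8.24 CPM without cytokine (2.37 ± 0.84, SE; limma adjusted p = 0.717) and at 15.3 and 18.1 against 5.64 and 4.80 CPM with Wnt3a. With TGFβ the Dhrs3 levels of the groups overlapped. Rarg was at 90.2 and 92.2 CPM in ΔHD1/- against 196 and 210 CPM in ΔHD1/fl lines with TGFβ (-1.14 ± 0.33, SE; limma adjusted p = 0.263).

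A list of 70 other retinoid genes, of which 43 passed the filter on low values, gives the surroundings of the members. Rbp4 and Ttr, which carry retinol in blood, Stra6l, a second membrane receptor of the family, and Lrat, which esterifies retinol for storage, were at or below 0.0431 CPM in every library. Aldh1a2 reached 0.198 CPM and Cyp26a1, a sensitive target of retinoic acid, 1.47 CPM at most. By contrast Rdh10, which makes retinal from retinol, ranged from 26.6 to 243 CPM, Rxra from 48.2 to 263 CPM, Rxrb from 37.3 to 125 CPM, and Fabp5, a carrier that can deliver retinoic acid to Ppard, from 45.6 to 295 CPM.

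With Wnt3a limma called 0 of these 43 genes in the mean response, with 2 at an unadjusted p under 0.05 and 0 called by edgeR, and the median log2 change was -0.07. TGFβ raised 1 and lowered 2 by limma, all of which were among 5 called by edgeR, with a median of -0.32 against -0.16 over all genes tested. These 3 of 43 genes are a share near the 5.42% of all genes called, and nothing is read from it. Adh7, an alcohol dehydrogenase that oxidises retinol, was lower in 9 of 9 lines, from 12.8 to 115 CPM untreated to 1.44 to 23.4 CPM with TGFβ (-2.37 ± 0.39, SE; limma adjusted p = 0.000721). Bhlhe40, a transcriptional repressor known to respond to retinoic acid and to many other signals, was higher in 9 of 9 lines (2.01 ± 0.35, SE; limma adjusted p = 0.00105). It was the one called of 13 tested genes known to be induced by retinoic acid, and nothing is read from that share either.

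Lpl, a lipase that also releases retinol from circulating esters, was the one listed gene called between genotypes. It was higher in untreated ΔHD1/- lines (6.87 ± 5.35 CPM, SD, n = 2) than in ΔHD1/fl lines (0.0373 ± 0.0527 CPM, SD, n = 2), with a log2 difference of 2.73 ± 0.49 (SE; limma adjusted p = 0.041). It reached 1 CPM in only 4 libraries, of which 3 were ΔHD1/-, so it passed the filter on low values only through the group in which it was high, and the call adds nothing to these levels. The same holds for its call as lower with TGFβ in ΔHD1/- lines (-2.02 ± 0.49, SE; limma adjusted p = 0.0439). edgeR called neither. Between genotypes with Wnt3a or TGFβ, and in the ΔHD2 family, limma and edgeR called 0 genes of the list, with 2 to 6 at an unadjusted p under 0.05.

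The genes whose level was most like that of Stra6 over the 27 libraries were Cyp4f39, Endou, Cysrt1, Asprv1 and Serpinb11, with Pearson r of log2(CPM + 1) of 0.921, 0.908, 0.902, 0.901 and 0.892. These points share lines and treatments, and the correlations are a description. With Spearman's rho only Endou stayed among the 5 closest genes. The median of Cyp4f39 over 9 lines was 0.126 CPM without cytokine, 15.9 CPM with Wnt3a and 0 CPM with TGFβ. Over the 9 lines, the Wnt3a minus untreated differences that correlated best with that of Stra6 were those of Timp3, Kctd21, Tle6, Cysrt1 and Serpinb11 (Pearson r of 0.986, 0.942, 0.932, 0.930 and 0.923), and by Spearman's rho Cysrt1 was tied at place 5 (rho 0.967, shared by 4 genes) and the other 4 came lower. A high r does not mean a response of like size. Kctd21 ranged from 4.91 to 8.87 CPM without cytokine and from 5.10 to 9.34 CPM with Wnt3a, and the median of Tle6 was 1.48 and 1.53 CPM.

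None of the other members was among these genes, and the r values below are a description, since they use the libraries that chose Stra6. Over the 27 libraries Pearson r with Stra6 was 0.49 for Rarg, 0.47 for Cyp26b1, 0.36 for Aldh1a1, 0.32 for Crabp2, 0.28 for Aldh1a3, 0.15 for Dhrs3, -0.02 for Rarb and -0.31 for Rara. Axin2 had 0.84, at place 17 among all genes tested, where Rarg was at place 527 and Cyp26b1 at place 595. For the Wnt3a minus untreated differences over 9 lines Axin2 had only 0.67, at place 641, and Aldh1a3 had 0.66, at place 668. The pair of members with the highest r was Aldh1a3 and Cyp26b1, at 0.66.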

How the data were processed

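RNA was sequenced from 27 cultures of 9 cell lines, 12 groups in all (stranded TruSeq libraries). Per the labels and the methods of the study, the authors aligned reads to mm10 with STAR, kept unique hits and counted reads that start in exons of RefSeq genes with QuasR. The version of STAR and the strand setting of the counting are not given in the sources used here, so reads of overlapping genes may not be separable. The deposited values are CPM, each library summing to 1000000. All values came out as whole reads (100% within 0.05 of a whole number). Symbols matched 24374 of 24454 genes.

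Genes that reached 1 CPM in 2 or more libraries were kept (13270, among them all 9 members) and tested with limma 3.58.1 in R 4.3.3 on log2(CPM + 1), a pseudocount of 1. All 27 libraries entered 1 fit with 12 group means. Genes were called at an adjusted p in limma (Benjamini-Hochberg, over all genes kept) up to 0.05 if they also changed by 1 or more, up or down, on the log2 scale. Fold changes on this scale understate changes of low genes. The step was tested on simulated data. The alternatives were edgeR 4.0.16 on the recovered reads, median-of-ratios scaling, a pseudocount of 0.1, no fold change limit, no filter on low values, only the groups compared, a block for the replicate number, averaging lines 2 and 3 of ΔHD2/-, and leaving out each line. Leaving out both lines with Cdh1 and Epcam near 0 was chosen after seeing the data.

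Per the labels, replicates are cell lines from 2 different mice of a genotype. ΔHD2/- has 3 lines, so that lines there may share a mouse. The same number marks the same line across treatments, and deviations from group means correlated between its libraries (r from 0.509 to 0.940), so the numbers pair treatments. The members, the retinoid list, the marker lists and the tests were chosen with earlier results of these data known. All members are named. Stra6 was taken out of every count of members called, and Aldh1a1 and Rarb out of the counts of levels between genotypes, after their values were seen. From the retinoid list, up to 4 called genes with the largest change per comparison are named, with levels of others added after their values were seen. One called gene of the list is counted but not reported here. The genes most like Stra6 are the 5 with the highest Pearson correlation. Loci are from GENCODE M21 and promoters from RefSeq, both on GRCm38 (mm10). Figures used matplotlib 3.10.9.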

Additional observations from a re-analysis of the deposited data

Results flagged for a closer look

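Aldh1a3 values lay on opposite sides of the untreated ones in the fl and recombined lines of the ΔHD1 family, mostly on few reads and with no difference that passed the test. With Wnt3a it went from 1.78 to 16.7 and from 0.186 to 0.284 CPM in the ΔHD1/fl lines and from 1.24 to 1.08 and from 0.0594 to 0 CPM in the ΔHD1/- lines. The difference in response was -1.49 ± 2.49 (SE) on the log2 scale and did not pass the test (limma adjusted p = 1.00). With TGFβ it went from 1.78 to 1.26 and from 0.186 to 0 CPM in the ΔHD1/fl lines and from 1.24 to 6.15 and from 0.0594 to 0.0720 CPM in the ΔHD1/- lines. That difference was 1.12 ± 2.49 (SE; limma adjusted p = 1.00). Line 2 of ΔHD1/- had at most 2 reads of Aldh1a3 in any library and line 2 of ΔHD1/fl at most 8. With Wnt3a line 1 of ΔHD1/- had 31 reads against 29 without cytokine, so that a clear difference was seen in line 1 of ΔHD1/fl alone (39 and 528 reads). With TGFβ line 1 of ΔHD1/- had 155 reads against 29, and line 1 of ΔHD1/fl had 30 against 39. The directions of the other lines rest on counts that depth does not resolve.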

How the results depend on the processing

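Of 1962 values of members other than Stra6 under alternatives, 1914 kept their direction and side of the threshold or were not called in either case, 31 lost and 17 gained a call, and 0 called values changed sign. The sign of 101 uncalled values differed. With Wnt3a averaged over genotypes 0 of 8 members were called throughout, and with TGFβ 2 or 3 of 8. In ΔHD1 with Wnt3a the log2 difference of Cyp26b1 was -6.15 without line 2 of ΔHD1/fl and -5.95 without both lines low in Cdh1. That of Rarb was 1.79 without both lines, and Rarb passed the filter on low values only through ΔHD1/- line 1. These fits leave a single ΔHD1/fl line, and no call is read from them. ΔHD2 went from 0 to 2 without cytokine, 2 with Wnt3a and 1 with TGFβ when line 1 of ΔHD2/- was left out. It stayed at 0 without line 2 or line 3 of ΔHD2/-. Over all genes the fit without line 1 called 749, 682 and 445, against 73, 91 and 47 with all lines. Responses within genotypes and their differences, 3 calls in 96 tests, gave 0 with median-of-ratios scaling, 0 with edgeR, 0 with lines 2 and 3 of ΔHD2/- averaged, and 1 with only the groups compared, which was Dhrs3 in ΔHD2/- (limma adjusted p = 0.0450) and none of the 3 (0.606, 0.560 and 0.0718). Leaving out lines gave 1 to 3, the lowest without line 2 of ΔHD1/-. Where 1 line of a genotype was left, it was assumed to vary like the other groups. The causes were not tested.

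The replicate block gave 9 such calls. Over all genes its TGFβ calls rose from 28 to 719 in ΔHD1/fl and from 190 to 1238 in ΔHD1/- lines. In ΔHD2/fl lines they rose from 38 to 695 and in ΔHD2/- lines from 107 to 800. Between fl and recombined lines the numbers are shared without a stated pairing (r of deviations 0.0871 to 0.472). There the block called 1 member in ΔHD1 with TGFβ (Rarg, limma adjusted p = 0.0475) and 1 in ΔHD2 with Wnt3a (Crabp2, 0.0126). Over all genes it called 84 and 180 in these 2 comparisons, against 4 and 91 without the block. It changed no other call of a member between genotypes. Of the 5 genes most like Stra6, Spearman's rho kept 1 over 27 libraries and 0 over 9 lines, where Cysrt1 was tied at place 5. Depth limits Stra6 in untreated recombined lines, Aldh1a1 and Rarb.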
